A study of Mus musculus with 41 samples.

Results

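Forebrain neurospheres making a tagged mutant of histone H3.3, in which methionine replaces lysine 27 (K27M), were compared by RNA-seq with neurospheres making the tagged normal histone (WT-Tag), 3 libraries against 3. These 6 libraries were chosen by the tissue and genotype in their labels, out of 41 libraries in the series. All 6 came from mouse embryos (embryonic stage E15.5) that carried Nestin-cre, which drives Cre recombinase in neural progenitors, and 1 Cre-dependent H3f3a allele, H3f3aLSL-K27M-Tag/+ or H3f3aLSL-WT-Tag/+. The controls therefore also express a tagged histone, and in both genotypes the untouched H3f3a allele remains. The cells were grown as floating spheres in a medium for neural precursors. K27M cultures A, B and C and WT-Tag cultures D, E and F belonged to experiments 1, 2 and 3, and libraries are named here by genotype and experiment. All cultures were female except WT-Tag 3, which was male. The labels do not say whether each culture came from its own embryo, so p-values measure the spread between cultures. Used beside the 6 forebrain cultures were 6 hindbrain cultures of the same genotypes and culture letters. The spread behind the forebrain p-values was pooled over both regions, and the main fit treated cultures of a letter as independent. Also used were 29 brainstem tumors (20 K27M, 9 WT-Tag) with Nestin-creERT2, the same H3f3a alleles, LSL-PDGFRαV544ins and Trp53flox/flox.

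Histone H3.3 is placed into chromatin outside of DNA replication, and its lysine 27 is the residue that Polycomb repressive complex 2 (PRC2) methylates. K27M is the histone mutation of childhood diffuse midline gliomas, where it lowers this methylation across much of the genome while some sites keep it. Genes that PRC2 holds silent in neural progenitors include many fetal growth genes, imprinted genes and regulators of other tissues.

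The cultures matched their labels by markers. The progenitor genes Sox2 (76.7 to 105.5 FPKM, fragment counts adjusted for transcript length and library size) and Fabp7 (1183 to 1555 FPKM) were high in all 6 libraries. The forebrain factor Lhx2 lay between 6.17 and 9.92 FPKM, against at most 0.107 in the hindbrain cultures, and Emx2 between 3.38 and 4.99, against at most 0.119. Irx2, a hindbrain factor, was at most 0.121 FPKM. The microglia markers Aif1, Cx3cr1, Csf1r and C1qa, the endothelial markers Cldn5, Cdh5 and Pecam1 and both globin genes were at most 0.233 FPKM. Xist and the Y-linked genes followed the labelled sex in all 6 libraries. Absolute depth is unknown, but the steps between low values gave depths relative to WT-Tag 1 of 1.40 and 1.32 in WT-Tag 2 and 3 and of 0.651, 0.973 and 1.25 in K27M 1, 2 and 3. By these estimates the K27M library was the shallower one in each experiment, and the part of depth in the results was not tested. Entries above 0 numbered 20255 in WT-Tag 1 and 19720 in K27M 1, against 24617 to 26378 in experiments 2 and 3. K27M 2 thus had more such entries than WT-Tag 1, at an estimated depth of 0.973. WT-Tag 2, WT-Tag 3 and K27M 3 stood apart from the other 3: their values for 180 entries of 5S ribosomal RNA, a small structural RNA, summed to 289 to 576 FPKM, against 25.2 to 30.8 in WT-Tag 1, K27M 1 and K27M 2. The first principal component, with 51.2% of the variance, separated the same sets, while over protein-coding entries the first component (49.0%) set WT-Tag 2 and 3 apart. Each set holds both genotypes, so differences within the low set (K27M 1 and 2 against WT-Tag 1) and the high set (K27M 3 against WT-Tag 2 and 3) are given below for some lists and genes. With so few libraries a set gives values and no test.

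In the comparison of K27M with WT-Tag, 24 genes were higher and 23 lower among 13190 genes tested. The higher genes included the fetal RNA-binding protein genes Igf2bp1 and Igf2bp2, the imprinted genes Grb10, Asb4 and Zdbf2, the hedgehog co-receptor gene Cdon and the Polycomb gene Bmi1. Among the lower genes were the astrocyte genes Agt, Mlc1, Slc4a4 and Clu and the zinc-handling genes Mt3 and Slc39a12. The median ratio of K27M to WT-Tag means was 3.03 over the 24 higher genes, and that of WT-Tag to K27M was 1.94 over the 23 lower genes. By ratio of means, 18 higher and 10 lower genes differed at least 2-fold. The higher genes lay at lower levels. Their K27M means had a median of 4.76 FPKM, against 15.4 FPKM for the WT-Tag means of the lower genes. WT-Tag means were under 1 FPKM in 8 higher and 0 lower genes. These ratios and counts thus do not compare the strength of the 2 directions.

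Calls were made with limma on log2(FPKM + 1) at a Benjamini-Hochberg adjusted p of 0.05, and changes are on that scale with their standard error, which understates folds of low genes. In parentheses after a gene, its change is followed by its adjusted p. The 47 genes are 0.356% of those tested, 0.182% for higher and 0.174% for lower genes. In all 47 the K27M values did not overlap the WT-Tag values, which held for 24.9% of all genes, and 1726 genes had an unadjusted p under 0.05 where 659.5 would by chance. Over all genes the median change was 0.04 and 59.2% were positive. That lean followed the scaling: 50.3% were positive after upper quartile scaling, 51.6% after quantile normalization and 40.2% where only protein-coding genes were kept and rescaled. With protein-coding genes alone, 44 genes were called higher and 169 lower, beside 24 and 23 in the deposited scaling. Of the 47, 44 are protein-coding. Slc16a9 and Slc7a3 lay just inside the threshold (adjusted p = 0.0480), and Gm11084, Lrrc16a, 1700084C01Rik and Lix1 just outside (0.0521 to 0.0531).

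**Figure D1:**
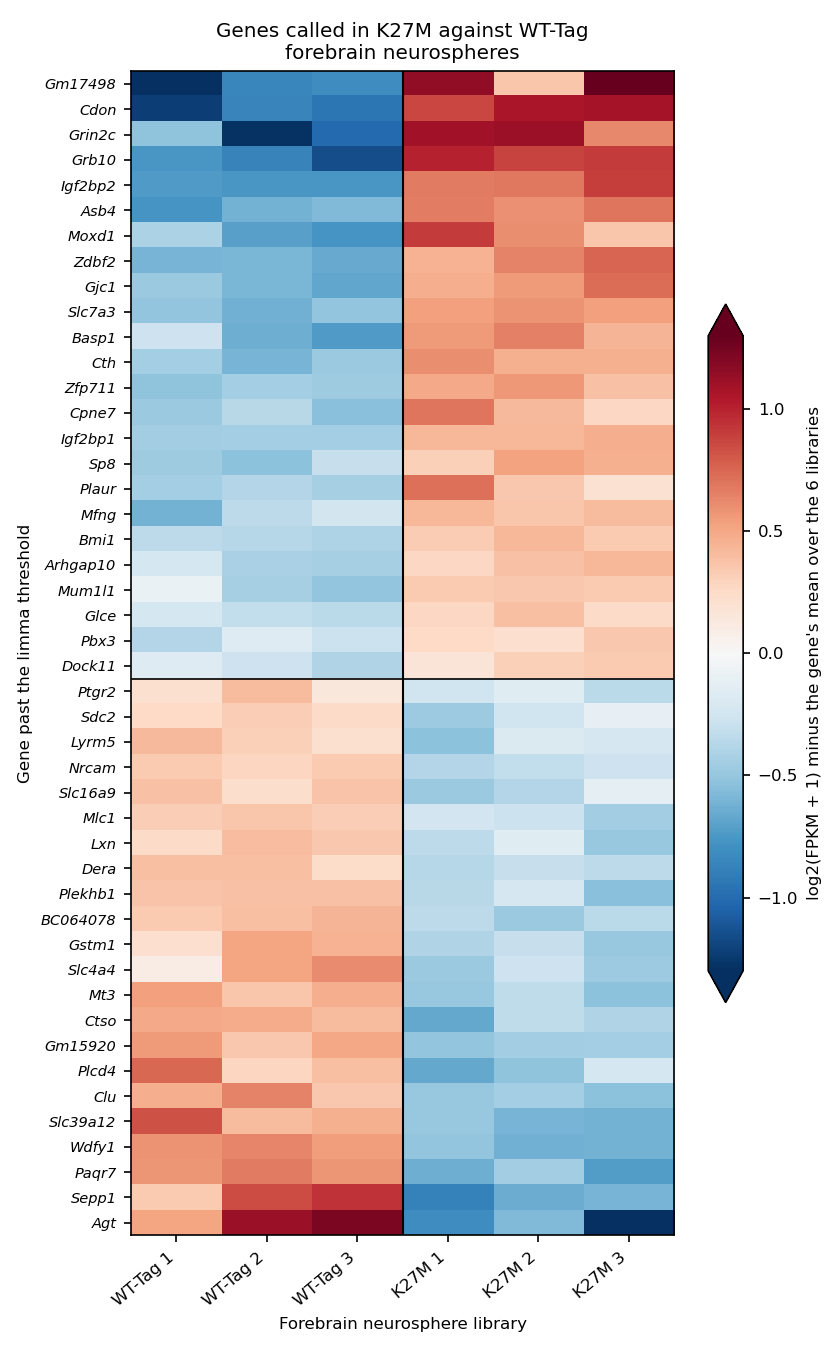
Values of 46 of the 47 called genes (rows) in the 6 forebrain libraries (columns), as log2(FPKM + 1) minus the gene's mean over the 6; red is above and blue below that mean, and colors saturate beyond 1.3. In each of the 24 upper rows the 3 K27M values lie above all WT-Tag values, and in each of the 22 lower rows below them.

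**Figure D2:**
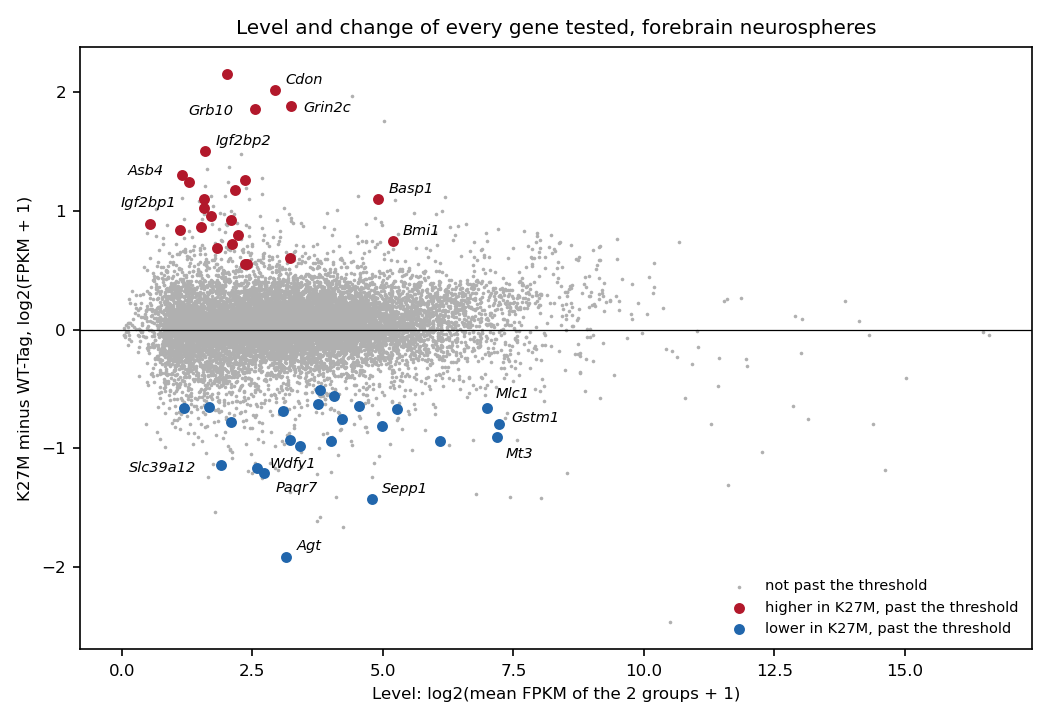
Level (log2 of the mean FPKM of both groups plus 1) against change (K27M minus WT-Tag, log2(FPKM + 1)) for 13190 genes, with called genes in red (24 higher) and blue (23 lower). Most red points lie at low levels, and the blue points reach the levels of Mlc1, Gstm1 and Mt3.

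The Igf2bp genes encode RNA-binding proteins of the embryo that bind mRNAs such as that of Igf2, and Lin28b blocks maturation of let-7 microRNAs, which repress them. Igf2bp2 was measured at 0.592, 0.565 and 0.568 FPKM in WT-Tag 1, 2 and 3 and at 3.22, 3.27 and 3.93 in K27M 1, 2 and 3. The WT-Tag libraries were nearly equal and all K27M libraries lay far above them. It rose by 1.503 ± 0.25 (adjusted p = 0.0332), a 6.04-fold ratio of means. Igf2bp1 was close to 0 in the WT-Tag libraries (0.013, 0.017 and 0.015 FPKM) and at 0.857, 0.862 and 0.917 FPKM in the K27M libraries. The rise of 0.89 ± 0.11 passed (0.00539). Igf2bp1 stayed under 1 FPKM in every forebrain library and was tested only because of its level in K27M hindbrain cultures. The third family member, Igf2bp3, was the most abundant, at 20.6, 15.9 and 15.4 FPKM against 29.9, 31.0 and 27.6, and its change of 0.75 ± 0.16 missed the threshold (0.0823) although the groups did not overlap.

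Lin28b was at 0.007, 0.015 and 0.033 FPKM in WT-Tag and 0.265, 0.263 and 0.296 in K27M libraries, a change of 0.32 ± 0.11 (0.248). The chromatin protein gene Hmga2, a let-7 target, was at 0.278, 0.210 and 0.295 against 0.841, 0.762 and 1.496 FPKM (0.67 ± 0.23, 0.251). H19, an imprinted growth-restraining RNA, was at 1.48, 2.19 and 1.83 against 4.68, 4.25 and 3.70 FPKM (0.88 ± 0.30, 0.238). In these 3 genes the groups did not overlap, as they did not in Hmga1 (0.31, 0.329) and Plagl1 (0.29, 0.475), but none passed. Of 12 genes of the fetal growth list, 8 were tested, 2 were called higher and all 8 changes were positive, with a median of 0.71 beside 0.04 over all genes. The 4 untested members (Lin28a, Igf2, Plag1 and Arid3a) were at most 0.820 FPKM in the forebrain. Of these, Plag1, a zinc finger factor of fetal growth, was at 0.015, 0.036 and 0.055 FPKM in WT-Tag libraries. In K27M libraries it was at 0.471, 0.668 and 0.727 FPKM, above all controls, as were 1984 of the 13190 genes tested. The IGF ligand genes, Igf2 among them, summed to 0.249, 0.684 and 0.451 against 0.21, 0.289 and 0.886 FPKM, with overlap. Library values of Lin28a and Arid3a are not given here. Because members were tested only where at least 3 of the 12 cultures reached 1 FPKM, and the list had been chosen with these data known, its count is a description.

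3 imprinted genes rose. Grb10, whose protein binds and damps the insulin and IGF receptors, was at 1.86, 1.65 and 1.17 FPKM in WT-Tag and 8.68, 7.87 and 8.06 in K27M libraries. It rose 5.27-fold by ratio of means (1.86 ± 0.26, adjusted p = 0.00810). Asb4, which has a SOCS box for recruiting ubiquitin ligases, was at 0.182, 0.320 and 0.358 against 2.19, 2.04 and 2.26 FPKM. All 3 K27M values exceeded 2 FPKM where no WT-Tag value reached 0.4, and the rise was 1.299 ± 0.15 (0.00339). Zdbf2, a paternally expressed gene, was at 0.467, 0.477 and 0.421 against 2.06, 2.495 and 2.78 FPKM and rose by 1.24 ± 0.17 (0.00670).

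The other imprinted genes did not pass. Of 23 tested, these 3 were higher, 0 were lower and 20 changes were positive (59.2% over all genes), with a median of 0.23. Asb4 and Zdbf2 were under 1 FPKM in every forebrain control, with hindbrain WT-Tag means of 0.226 and 0.086. They entered the test through K27M cultures, so the count is a description. After H19, the largest changes without a call were those of Ndn (0.73 ± 0.26, 0.257) and the CDK inhibitor gene Cdkn1c (0.72 ± 0.31, 0.361). Ndn was at 25.2, 13.2 and 12.1 FPKM in WT-Tag and 26.8, 31.1 and 23.9 in K27M libraries, so WT-Tag 1 reached the K27M range. Cdkn1c was at 5.79, 10.8 and 10.2 against 17.4, 20.97 and 8.88 FPKM: the difference was 1.57 in the low 5S set and −0.22 in the high set. Smaller changes were found for Nnat (0.45), Peg10 (0.43), Plagl1 (0.29), Nap1l5 (0.26), Usp29 (0.24), Igf2r (0.23), Osbpl5 (0.22), Inpp5f (0.18), Sgce (0.16) and Ppp1r9a (0.13). Gnas (0.08), Snrpn (0.06), Ube3a (0.04) and Mest (0.04) were near 0, and Peg3 (−0.18), Zrsr1 (−0.14) and Impact (−0.12) were negative. The 13 untested members were at most 0.881 FPKM. The data do not separate the parental alleles.

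Promoter sequence is shown for 2 higher genes with many and 2 lower genes with few CpG, the dinucleotide that is methylated in mammalian DNA and dense in CpG islands. Each stretch is the 200 bases before a RefSeq start in GRCm38.p6, a later build than that of the expression table, with CpG in capitals. Where a gene had several starts (Grb10), the window with most CpG was taken.
Igf2bp2 (chr16:22163300-22163499, strand minus): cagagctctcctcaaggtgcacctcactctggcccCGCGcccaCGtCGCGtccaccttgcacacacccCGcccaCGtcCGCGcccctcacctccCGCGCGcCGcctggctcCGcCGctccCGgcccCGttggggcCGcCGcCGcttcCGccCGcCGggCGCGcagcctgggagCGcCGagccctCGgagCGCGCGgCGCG
Grb10 (chr11:12037421-12037620, strand minus): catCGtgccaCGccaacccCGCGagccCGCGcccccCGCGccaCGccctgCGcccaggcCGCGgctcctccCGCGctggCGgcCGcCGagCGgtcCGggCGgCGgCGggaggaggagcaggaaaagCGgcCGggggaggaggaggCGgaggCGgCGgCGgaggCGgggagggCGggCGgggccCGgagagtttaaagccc
Agt (chr8:124569707-124569906, strand minus): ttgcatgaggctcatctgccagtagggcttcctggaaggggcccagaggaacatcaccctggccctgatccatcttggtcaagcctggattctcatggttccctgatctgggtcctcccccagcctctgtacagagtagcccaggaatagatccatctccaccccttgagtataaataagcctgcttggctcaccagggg
Mlc1 (chr15:88978554-88978753, strand minus): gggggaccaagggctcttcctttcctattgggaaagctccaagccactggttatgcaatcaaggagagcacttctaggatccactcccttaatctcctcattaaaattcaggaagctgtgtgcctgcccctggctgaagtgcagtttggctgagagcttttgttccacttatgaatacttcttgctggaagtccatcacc
The Igf2bp2 and Grb10 stretches hold 33 and 32 CpG, and those of Agt and Mlc1 hold 0. These 4 were picked after their sequence was seen. In the full windows (250 bases before to 50 after the start) the observed over expected CpG was 1.09 for Igf2bp2, 0.973 for Grb10, 0.0446 for Agt and 0.163 for Mlc1, beside a median of 0.808 over 9273 tested genes with a window. The directions did not divide this way: Cdon and Asb4, which rose, had ratios of 0.201 and 0.602, and Slc4a4, which fell, 1.06. The medians were 0.691 for higher and 0.513 for lower genes. Windows were found for 14 of 24 higher and 16 of 23 lower genes, too few for a comparison of the directions, which is void.

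In the hedgehog pathway 1 gene rose. Cdon encodes a cell surface co-receptor that helps hedgehog ligands bind Ptch1. Its values were 1.62, 2.37 and 2.19 FPKM in WT-Tag 1, 2 and 3 and 10.2, 11.7 and 11.96 in K27M 1, 2 and 3. The highest control and the lowest K27M library were thus far apart, and Cdon had the smallest adjusted p of the comparison (0.000306), with a rise of 2.01 ± 0.15 and a 5.49-fold ratio. The other co-receptor genes, Boc (0.16 ± 0.21, 0.793) and Gas1 (0.42 ± 0.24, 0.502), did not pass. Ptch1, receptor and target of the pathway, was at 13.5, 10.6 and 12.4 against 12.3, 11.6 and 11.2 FPKM (−0.05 ± 0.15, 0.922), and the signal transducer gene Smo had a change of 0.11 ± 0.12 (0.742). Gli3, a factor that mostly represses targets, was at 1.38, 1.40 and 1.55 against 2.74, 2.04 and 3.28 FPKM, without overlap (0.58 ± 0.16, 0.170). The ligand gene Dhh (0.23) and the regulators Sufu (0.16) and Kif7 (0.10) had adjusted p from 0.603 to 0.821. Of 9 tested members 1 was higher, 0 were lower and 8 were positive (median 0.16). Shh, Ihh, Hhip, Gli1 and Gli2 were among those not tested, and Gli1, the usual readout of pathway activity, was at most 0.048 FPKM in any forebrain library.

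Grb10 was the 1 called member of 10 tested insulin and IGF signaling genes (6 positive, median 0.15). Igf1r, the receptor it binds, was at 5.41, 4.05 and 4.71 FPKM in WT-Tag and 7.53, 7.28 and 7.17 in K27M libraries, without overlap, but did not pass (0.55 ± 0.20, 0.284). The binding protein genes Igfbp2 (596, 456 and 432 against 389, 387 and 362 FPKM, −0.37 ± 0.20, 0.475) and Igfbp4 (−0.73 ± 0.39, 0.465) had lower values in every K27M library and did not pass either. Changes of Igf2r, Insr (0.13), Irs1 (−0.10), Irs2 (−0.05), Igfbp3 (0.33) and Igfbp5 (0.17) were smaller than that of Igf1r.

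Bmi1, a subunit of Polycomb repressive complex 1 (PRC1) that sustains self-renewal of neural stem cells, was at 26.8, 26.3 and 25.7 FPKM in the WT-Tag and 43.4, 46.7 and 43.7 in the K27M libraries. It rose 1.70-fold (0.74 ± 0.10, adjusted p = 0.00810) and was the 1 called gene among 27 tested Polycomb and H3K27 enzyme genes, of which 22 were positive (median 0.16). None of the PRC2 core genes passed: Ezh2 (0.22 ± 0.14, 0.526), Eed (0.19 ± 0.12, 0.533), Suz12 (0.22 ± 0.14, 0.545), Ezh1 (−0.14), Rbbp4 (0.19) and Rbbp7 (0.20). PRC2 partners had changes from 0.06 (Mtf2) to 0.32 (E130012A19Rik), with Jarid2 at 0.24, Aebp2 at 0.16, Phf1 at 0.14 and Phf19 at 0.11.

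Within PRC1, the ubiquitin ligase gene Rnf2 was at 31.7, 31.5 and 30.5 against 37.1, 41.2 and 36.6 FPKM, without overlap (0.28 ± 0.09, 0.216). Cbx2 (0.41, 0.248) and Pcgf5 (0.31, 0.284) were next, and Ring1, Pcgf1, Pcgf3, Pcgf6, Cbx8, Phc1, Phc2 and Phc3 lay between −0.15 (Phc3) and 0.23 (Phc2). Pcgf2 and Cbx7, both under 1 FPKM, and the Y-linked Uty were not tested. The H3K27 demethylase genes Kdm6a (0.21) and Kdm6b (−0.19) did not pass. Cdkn2a, the INK4a and ARF locus that Bmi1 represses, was at 2.83, 3.92 and 2.87 against 1.37, 1.72 and 2.47 FPKM, lower in every K27M library without passing (−0.57 ± 0.19, 0.242). Of 7 CDK inhibitor genes 0 were called and 6 were positive (median 0.11), with Cdkn2b at 0.03, Cdkn2c at 0.21, Cdkn2d at 0.11, Cdkn1a at 0.05 and Cdkn1b at 0.21. H3f3a itself was at 106, 94.0 and 93.4 FPKM in WT-Tag and 105, 115 and 89.0 in K27M libraries (0.07 ± 0.11, 0.831), and H3f3b, which encodes the same protein, changed by 0.29 ± 0.18 (0.525) without passing. A gene's summed value cannot tell the mutant transcript from the wild-type one and so does not check the genotype.

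PRC2-held regulators of other tissues were little measured. Of 36 such factors 33 were not tested and were at most 0.313 FPKM in the forebrain, and of 28 HOX genes 0 were tested (at most 0.083 FPKM). Among the 3 tested factors, Eya1 was at 5.63, 7.83 and 6.52 against 9.42, 13.99 and 11.4 FPKM (0.71, 0.333) and Prrx1 at 2.04, 3.06 and 3.04 against 4.41, 3.995 and 4.59 (0.53, 0.402), both without overlap and without passing. The third, Foxc1, had a negative change (1.38, 2.27 and 2.01 against 1.503, 1.23 and 1.45 FPKM, −0.26, 0.445). Forebrain identity genes had 0 calls in 7 tested and 7 positive changes (median 0.32), with Otx2 (0.79, 0.381), Lmo3 (0.41), Lhx2 (0.37) and Emx2 (0.32) the largest.

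Slc7a3, which encodes an importer of arginine and lysine, was at 0.944, 0.801 and 0.939 FPKM in WT-Tag and 3.01, 3.14 and 2.99 in K27M libraries, a 3.41-fold ratio that passed narrowly (1.10 ± 0.20, 0.0480). Cth, the enzyme that makes cysteine from cystathionine, was at 1.06, 0.844 and 1.00 against 3.27, 2.87 and 2.88 FPKM, with nearly equal values in each group, and rose by 1.02 ± 0.13 (0.00539); it is not on the list that follows. The list of amino acid transporters and targets of ATF4, the factor that answers amino acid shortage, had 1 higher and 0 lower calls in 26 tested, 22 positive changes and a median of 0.42. In 17 of the 26 the K27M values lay above all WT-Tag values, and in 2 below, where 24.9% of all genes did not overlap. Asns, asparagine synthetase, was at 25.5, 18.0 and 19.4 against 41.3, 39.4 and 38.5 FPKM (0.90 ± 0.18, 0.0713), and the glutathione-degrading enzyme gene Chac1 at 1.75, 1.11 and 1.39 against 6.66, 3.79 and 3.94 (1.24 ± 0.30, 0.117). Slc6a9, a glycine transporter gene, went the other way, at 24.6, 15.1 and 16.5 against 10.7, 11.2 and 7.25 FPKM (−0.87 ± 0.21, 0.113). Asns, Chac1 and Slc6a9 did not pass, and Mthfd2, a mitochondrial folate enzyme gene, had a change of 0.85 (0.243). The median change of the list was 0.27 in the low 5S set and 0.42 in the high set. Its median level, as log2(FPKM + 1), was 4.07, 3.82 and 3.88 in WT-Tag and 4.29, 4.06 and 3.81 in K27M libraries. By that measure K27M 3 lay below all controls.

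Grin2c, an NMDA glutamate receptor subunit gene, was at 4.31, 2.13 and 2.78 FPKM in WT-Tag libraries and at 15.3 and 10.7 in K27M 1 and 3, with K27M 2 just above K27M 1. It rose 4.51-fold (1.88 ± 0.21, adjusted p = 0.00339). It was the 1 called glutamate receptor gene of 11 tested, and 9 of the 11 had negative changes (median −0.16). Gria1, an AMPA receptor subunit gene, was at 5.17, 2.67 and 2.51 against 0.662, 0.527 and 1.36 FPKM, lower in every K27M library but not past the threshold (−1.24 ± 0.28, 0.0984). Grm5 (−0.37, 0.315) and Gria2 (−0.27, 0.489) were next.

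Gjc1, a connexin gene, was at 1.95, 1.73 and 1.59 against 4.74, 5.07 and 5.83 FPKM and rose by 1.17 ± 0.11 (0.00166). Gja1, the main astrocyte connexin gene, was at 65.9, 121 and 118 against 42.2, 50.5 and 57.1 FPKM, the other direction, and did not pass (−0.97 ± 0.27, 0.170). Basp1, a protein of growth cones, was at 22.2, 16.96 and 15.8 against 39.9, 43.0 and 36.8 FPKM and rose 2.18-fold (1.09 ± 0.13, 0.00388). It was the 1 called gene of 10 tested neuron and neuroblast genes, and Tubb3 (0.37, 0.588), Elavl4 (0.40, 0.256) and Crmp1 (0.40, 0.614) did not pass. Nrcam, a neural cell adhesion gene, fell from 27.7, 26.4 and 27.6 FPKM to 16.4, 17.2 and 17.8 (−0.64 ± 0.08, 0.00388).

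The other higher genes with large changes had varied roles. Gm17498, a gene model without a match in the annotation used, was at 0, 0.647 and 0.686 FPKM in WT-Tag and 5.55, 2.79 and 8.68 in K27M libraries (2.15 ± 0.37, 0.0390) and its K27M values were widely spread. Moxd1, a monooxygenase related to dopamine beta-hydroxylase, was at 2.498, 1.85 and 1.74 against 7.75, 6.07 and 4.98 FPKM (1.25 ± 0.16, 0.00474). Cpne7, a calcium-dependent phospholipid-binding protein, was at 1.89, 2.16 and 1.77 against 5.56, 4.42 and 3.87 (0.93 ± 0.12, 0.00637). In all of them each K27M library was above each control. Plaur, the urokinase receptor gene, was at 0.512, 0.568 and 0.513 against 2.36, 1.61 and 1.34 FPKM (0.84 ± 0.14, 0.0253). Sp8, a factor that patterns the telencephalon, was at 0.968, 0.876 and 1.21 against 2.35, 2.89 and 2.75 (0.86 ± 0.13, 0.0156), so that male WT-Tag 3 was the highest control. Mfng, a fringe enzyme that glycosylates Notch receptors, was at 1.92, 2.55 and 2.79 against 5.03, 4.76 and 4.94 FPKM (0.80 ± 0.13, 0.0340).

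The Notch list had 0 calls in 12 tested and 10 positive changes (median 0.26). Its target genes Hes5 (91.3, 65.4 and 74.5 against 203, 109 and 94.7 FPKM, 0.74, 0.260) and Hey1 (13.5, 16.4 and 14.5 against 30.7, 24.2 and 18.1, 0.65, 0.171) had higher values in every K27M library and did not pass. The 4 called genes on the X chromosome, of 504 tested there, were all higher: Slc7a3, Zfp711, Mum1l1 and Dock11. Zfp711, a zinc finger factor, was at 1.14, 1.28 and 1.23 FPKM in WT-Tag and 3.32, 3.54 and 3.02 in K27M libraries (0.95 ± 0.10, 0.00238), with male WT-Tag 3 between the 2 female controls. Mum1l1 (2.25, 1.54 and 1.41 against 3.35, 3.39 and 3.37 FPKM) and Dock11 (3.59, 3.27 and 2.92 against 4.78, 5.38 and 5.52) were lowest in WT-Tag 3, and with a term for sex their adjusted p was 0.108 and 0.103. Slc7a3 lost its call with that term too (0.0542), while Zfp711 kept it (0.00776). Such losses were not limited to the X chromosome. Of the 47 calls, 16 were lost with the sex term (adjusted p from 0.0521 to 0.108). Among them were the lower genes Mlc1 (0.0776) and Slc4a4 (0.0967), on chromosomes 15 and 5.

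Among genes that fell were 4 astrocyte genes. Agt, which encodes angiotensinogen and is made by astrocytes in the brain, was at 8.998, 14.3 and 15.45 FPKM in WT-Tag and 3.01, 3.72 and 1.51 in K27M libraries. It fell 4.70-fold (−1.91 ± 0.25, adjusted p = 0.00589), and WT-Tag 1 had the lowest control value, so that the difference was −1.20 in the low and −2.66 in the high 5S set. Clu, a secreted chaperone, was at 12.9, 14.7 and 11.8 against 6.11, 6.37 and 5.93 FPKM (−0.98 ± 0.11, 0.00339). Mlc1, whose protein sits in the membrane of perivascular astrocyte processes, was at 155, 159 and 155 against 104, 102 and 90.2 FPKM (−0.66 ± 0.11, 0.0364), and its controls hardly varied. Slc4a4, a sodium bicarbonate cotransporter, was at 31.5, 42.2 and 45.3 against 20.8, 24.1 and 20.9 FPKM (−0.81 ± 0.15, 0.0475).

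These were the 4 calls in 18 tested astrocyte genes, of which 17 were negative (median −0.83, beside 0.04 over all genes), and 12 of the 18 lay below all controls, as did 9.84% of all genes. The size differed between the library sets: the list median was −0.25 in the low 5S set and −1.03 in the high set. Gfap, the intermediate filament of astrocytes, was at 4.804, 51.7 and 32.8 FPKM in WT-Tag and 5.62, 6.32 and 5.71 in K27M libraries. WT-Tag 1 thus lay below the K27M libraries, while WT-Tag 2 and 3 stood far above (−1.66 ± 0.79, 0.405). The water channel gene Aqp4 (16.9, 52.3 and 47.3 against 14.97, 15.4 and 12.3 FPKM, −1.24, 0.382) was also high in WT-Tag 2 and 3 alone and did not pass. S100b (5.78, 9.67 and 8.66 against 2.83, 3.93 and 1.75 FPKM, −1.25 ± 0.27, 0.0968) and Sparcl1 (119.6, 200.1 and 158 against 54.0, 69.9 and 54.6, −1.38 ± 0.35, 0.137) were lower in every K27M library and did not pass. Summed over the list, astrocyte genes reached 1361, 2324 and 2106 FPKM in WT-Tag 1, 2 and 3 and 1181, 1319 and 909 in K27M 1, 2 and 3. In bulk RNA, fewer astrocyte-like cells and less RNA of these genes per cell cannot be told apart.

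Of zinc-handling genes 2 fell. Mt3, the metallothionein of the nervous system, was at 199, 177 and 192 FPKM in WT-Tag and 97.5, 109 and 94.9 in K27M libraries and fell 1.88-fold (−0.91 ± 0.11, adjusted p = 0.00388). Slc39a12, a zinc importer gene, was at 5.09, 3.56 and 3.73 against 1.44, 1.25 and 1.23 FPKM and fell 3.16-fold (−1.14 ± 0.15, 0.00670). These were the 2 calls in 21 tested genes of metallothioneins and zinc transport, where the median was −0.06 and 8 were positive. Mt1 (277, 409 and 371 against 312, 366 and 254 FPKM, −0.18, 0.718) and Mt2 (64.7, 125 and 110.5 against 124, 129 and 69.6, 0.10, 0.904) overlapped between genotypes, and Mtf1, the factor that senses zinc, changed by 0.06 (0.877) without passing. Sepp1, selenoprotein P, was at 29.6, 42.5 and 45.5 FPKM in WT-Tag and 12.1, 14.4 and 14.9 in K27M libraries (−1.42 ± 0.22, 0.0175). The glutathione transferase gene Gstm1 was at 167, 205 and 196 against 109, 116 and 101 FPKM (−0.79 ± 0.12, 0.0181). In both, all K27M libraries were lower and WT-Tag 1 was the lowest control.

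Ctso, a cysteine cathepsin, was at 11.5, 11.3 and 10.8 against 4.57, 6.05 and 5.76 FPKM and fell 2.05-fold (−0.93 ± 0.10, adjusted p = 0.00339). It was the 1 call in 20 lysosomal genes, of which 19 were negative (median −0.27) and 11 lay below all controls, beside 9.84% of all genes. The lysosomal median was −0.15 in the low 5S set and −0.44 in the high set. Ctsd, the main aspartic cathepsin, was at 151, 156 and 149 against 122, 119.9 and 97.0 FPKM without passing (−0.43 ± 0.12, 0.174), and Ctsf (−0.49) and Ctsh (−0.43) were next. Cholesterol synthesis genes had 0 calls in 15 and a median of −0.19, and 8 of the 15 lay below all controls (9.84% of all genes did), led by Dhcr7 (−0.37 ± 0.17, 0.408). Interferon and antigen presentation genes had 0 calls in 15 (median −0.17), with Stat2 at −0.54 (0.147).

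Other lower genes held signaling and metabolic roles. Wdfy1, an endosomal adaptor, was at 7.26, 7.57 and 7.02 FPKM in WT-Tag and 2.87, 2.58 and 2.61 in K27M libraries, with very little spread in either group (−1.17 ± 0.10, 0.000586). Paqr7, a membrane progestin receptor, was at 7.93, 8.61 and 7.93 against 2.89, 3.38 and 2.64 FPKM (−1.21 ± 0.11, 0.00135). Plcd4, a phospholipase C, was at 24.3, 17.4 and 18.8 against 8.56, 9.55 and 11.9 FPKM (−0.94 ± 0.15, 0.0187). None of these 3 genes overlapped between the genotypes. The pseudogenes Gm15920 (93.7, 80.8 and 90.3 against 44.0, 46.1 and 46.5 FPKM, −0.94 ± 0.12, 0.00474) and BC064078 (−0.78, 0.0364) can share reads with near-identical copies, so their source is uncertain.

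The 17 smallest changes among the called genes, 6 higher and 11 lower, had ratios of means between 1.60 and 1.95 when higher and between 1.47 and 2.30 when lower. Beside Bmi1, Mum1l1 and Dock11, the higher ones were Arhgap10, a GTPase-activating protein (0.72 ± 0.10, 0.0112), Glce, an epimerase of heparan sulfate synthesis (0.60 ± 0.10, 0.0206), and Pbx3, a homeodomain cofactor of HOX proteins (0.55 ± 0.09, 0.0364). Beside Nrcam, Mlc1 and BC064078, the lower ones included Plekhb1 (−0.75, 0.00637), Dera, a deoxyribose-phosphate aldolase (−0.68, 0.00339), Lxn, a carboxypeptidase inhibitor (−0.66, 0.0175), Slc16a9 (−0.66), Lyrm5 (−0.62), the heparan sulfate proteoglycan gene Sdc2 (−0.56) and Ptgr2, a prostaglandin reductase (−0.51). Slc16a9, Lyrm5, Sdc2 and Ptgr2 had adjusted p from 0.0411 to 0.0480.

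**Figure D3:**
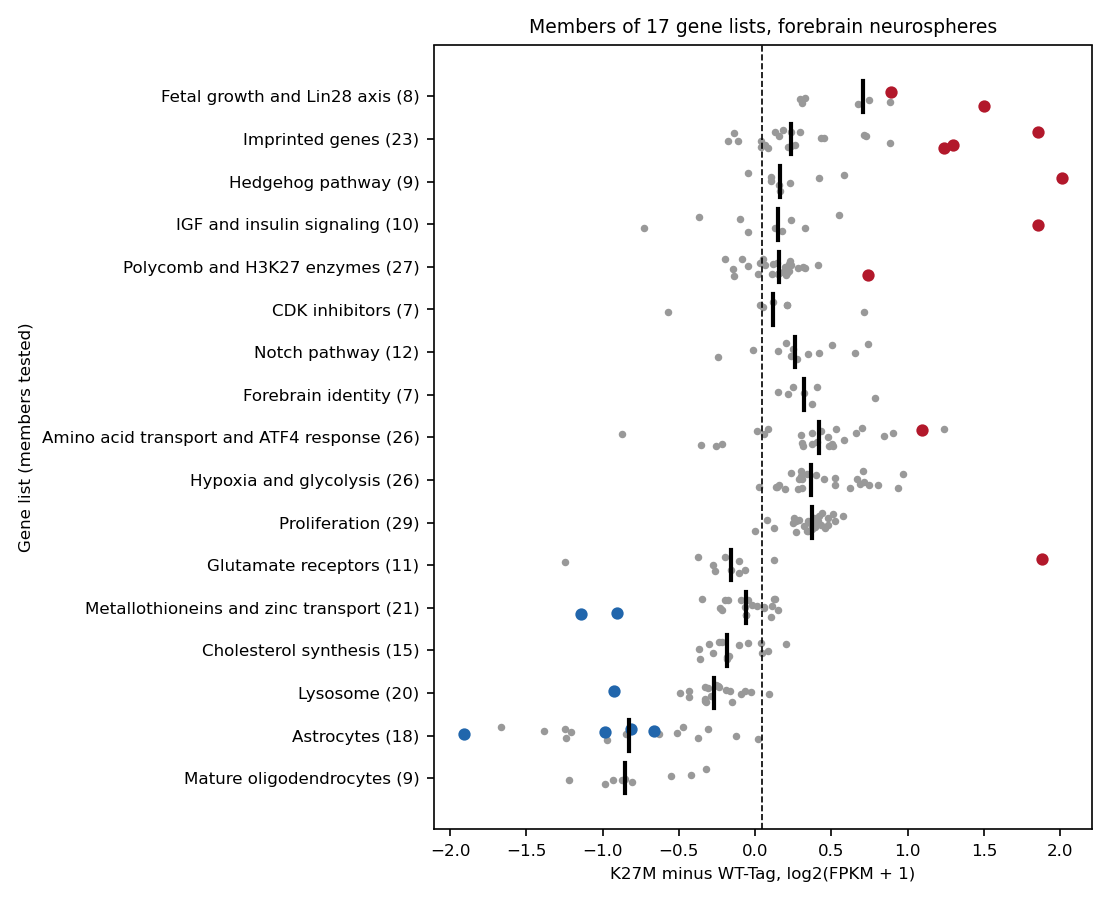
Change (K27M minus WT-Tag, log2(FPKM + 1)) of each tested member of 17 gene lists; black bars are list medians, the dashed line is the median of all genes (0.04), and called members are red (higher) or blue (lower). Fetal growth genes have a median of 0.71, astrocyte genes of −0.83 and Polycomb genes of 0.16 with Bmi1 alone called. The fetal growth list was chosen with these data known. Its members Igf2bp1 and Lin28b were tested only through K27M hindbrain cultures, so its median is a description.

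Several lists without a call had medians that differed between the 2 sets of libraries. Mature oligodendrocyte genes had 0 calls in 9, all negative (median −0.85), but the median was 0.65 in the low 5S set and −2.25 in the high set. The myelin gene Mbp was at 2.68, 15.2 and 12.2 FPKM in WT-Tag and 5.44, 7.79 and 0.995 in K27M libraries. WT-Tag 2 and 3 were thus highest and K27M 3 lowest, with WT-Tag 1 below K27M 1 and 2. Summed over its members, this list ranged from 51.6 to 148 FPKM in WT-Tag and from 30.3 to 80.8 in K27M libraries, and Mog, a marker of mature cells, was at most 0.123. Oligodendrocyte precursor genes had 0 calls in 15 (median 0.02, with 0.39 in the low and −0.55 in the high set).

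Hypoxia and glycolysis genes had 0 calls in 26, all positive (median 0.37), with 0.69 in the low set and −0.02 in the high set. Vegfa, the hypoxia-driven angiogenic factor gene, was at 24.2, 46.2 and 41.1 FPKM in WT-Tag and 64.7, 78.4 and 39.0 in K27M libraries, so K27M 3 lay within the control range (0.69 ± 0.38, 0.475). Ndrg1 (0.97, 0.144) and Hk2 (0.94, 0.205) did not overlap and did not pass. Proliferation genes had 0 calls in 29 and 28 positive changes (median 0.37), with −0.09 in the low set and 0.70 in the high set. The replication gene Mcm6 was at 43.5, 28.5 and 29.02 against 46.4, 48.5 and 54.2 FPKM (0.57 ± 0.23, 0.313), and WT-Tag 2 and 3 were the low libraries. Immediate early genes had 0 calls in 13 (median −0.01), with 0.35 in the low and −0.41 in the high set. The part of the 5S sets in these 5 lists was not tested. For fetal growth genes the median was 0.52 in the low and 0.71 in the high set. As that list was chosen with these data known, these values are a description too.

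Among the remaining lists, p53 targets (0 calls in 17, median 0.17), Wnt (0 in 22, 0.11) and BMP and TGF-beta genes (0 in 18, 0.12) had no called member. Nor had receptor tyrosine kinases with their feedback targets (0 in 19, 0.10) or extracellular matrix genes (0 in 14, 0.04). For 3 of these lists the member with the largest change is given here, and none passed. Tnc, a matrix protein of radial glia, was at 48.9, 38.6 and 47.8 FPKM in WT-Tag and 111, 102 and 82.8 in K27M libraries (1.11 ± 0.23, 0.0831). The Wnt antagonist gene Sfrp2 was at 3.32, 1.66 and 2.36 against 7.75, 7.02 and 4.402 FPKM (1.10 ± 0.26, 0.113), and the p53 target Pmaip1 at 8.74, 4.71 and 4.48 against 10.4, 12.3 and 11.9 (0.89 ± 0.24, 0.151). All 3 were higher in every K27M library than in every control, as were 1984 of the 13190 genes tested. Members without overlap made up 29.4% of p53 targets, 31.8% of Wnt and 50% of BMP and TGF-beta genes. For receptor tyrosine kinases with their feedback targets the share was 21.1% and for matrix genes 21.4%, beside 24.9% of all genes. Below all controls lay 3 BMP and TGF-beta genes, 3 receptor tyrosine kinases or feedback targets and 1 p53 target gene.

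**Figure D4:**
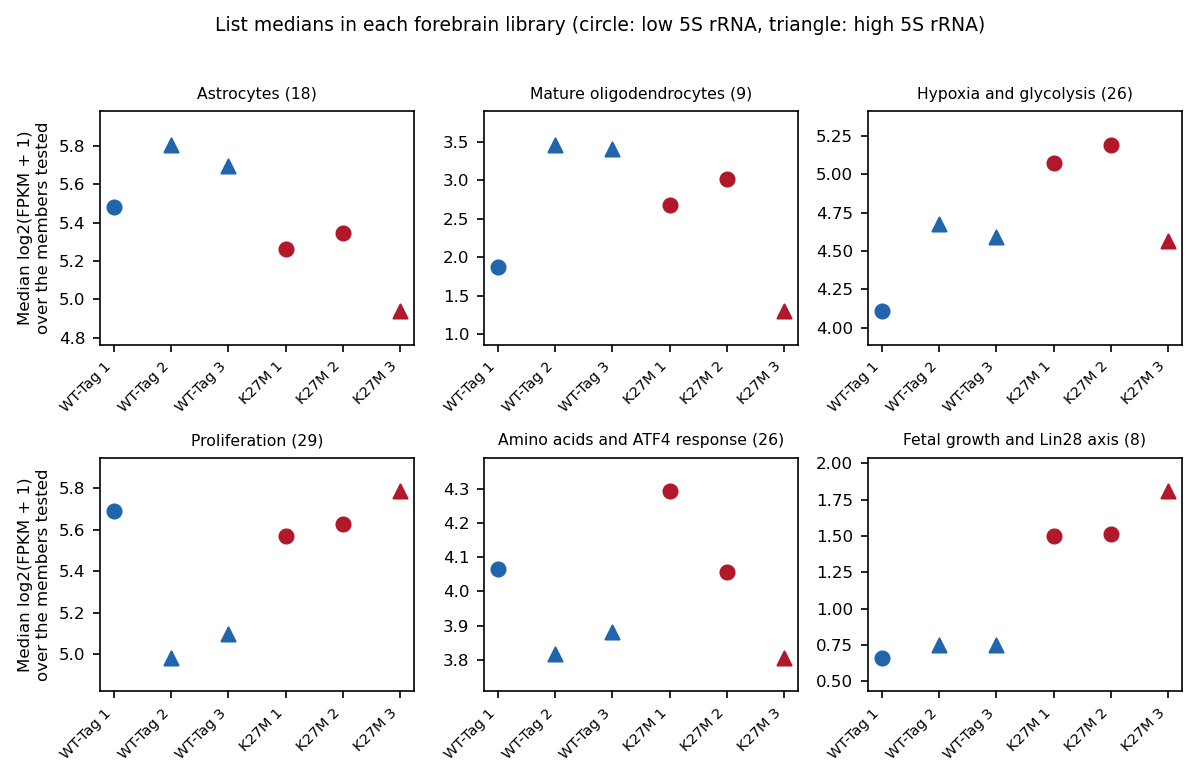
Median log2(FPKM + 1) over the tested members of 6 gene lists in each forebrain library, WT-Tag in blue and K27M in red; circles are libraries with low and triangles with high 5S rRNA, and each panel has its own scale. Medians of the tested fetal growth genes are higher in each K27M than in each WT-Tag library. That list was chosen with these data known, and members such as Igf2bp1 and Lin28b were tested only through K27M hindbrain cultures. Its separation is a description. Mature oligodendrocyte and hypoxia genes place WT-Tag 1 and K27M 3 apart from the other libraries of their genotype.

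The hindbrain cultures carry the same culture letters as the forebrain ones. A test of the forebrain change minus the hindbrain change called 5 genes (0.0379% of those tested), and 0 of the 47 were among them, where the lowest adjusted p was 0.111, for Igf2bp1. Its change was 0.89 in forebrain and 1.86 ± 0.11 in hindbrain. Cdon had 1.52 ± 0.15 in hindbrain (adjusted p of the difference 0.754), Grb10 2.43 ± 0.26 (0.926), Asb4 2.07 ± 0.15 (0.390) and Agt −1.45 ± 0.25 (0.968). Moxd1 had 0.38 ± 0.16 (0.317) and Sp8 0.25 ± 0.13 (0.532), smaller than in forebrain, without passing. For the difference between the regional effects of K27M, 831 genes had an unadjusted limma p under 0.05, where 659.5 would by chance. The cultures of a letter are not independent of each other, so their like values are no separate support.

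The tumors share no library with the forebrain cultures. Of the 47 genes, 44 were tested there and 2 were called, both higher, where 0.0846% of 15360 genes were called. Asb4 averaged 0.978 ± 0.878 FPKM over the 9 WT-Tag tumors and 9.57 ± 7.93 over the 20 K27M tumors (mean ± SD), a change of 2.25 ± 0.31 (limma adjusted p = 0.000601). Pbx3 averaged 2.496 ± 1.22 against 4.79 ± 0.839 FPKM (0.78 ± 0.13, 0.00416). Cdon (0.51 ± 0.13), Zdbf2 (0.75 ± 0.22) and Igf2bp2 (0.95 ± 0.32) were positive without passing (0.214, 0.316 and 0.460), and Grb10 was at 0.00 ± 0.31 (0.998).

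Most of the forebrain genes were near 0 in tumors. The 21 higher genes tested had a tumor median of 0.04 with 15 positive, and the 23 lower genes a median of 0.01 with 9 negative, beside −0.01 and 46.6% positive over all tumor genes. At an unadjusted p under 0.05, 10 of 44 changed, 7 in the forebrain direction, where 7.19% of all tumor genes did. The astrocyte genes that fell in culture had tumor changes of 0.01 ± 0.48 (Agt), 0.19 ± 0.29 (Clu), 0.60 ± 0.37 (Mlc1) and 0.45 ± 0.37 (Slc4a4), none of which passed.

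**Figure D5:**
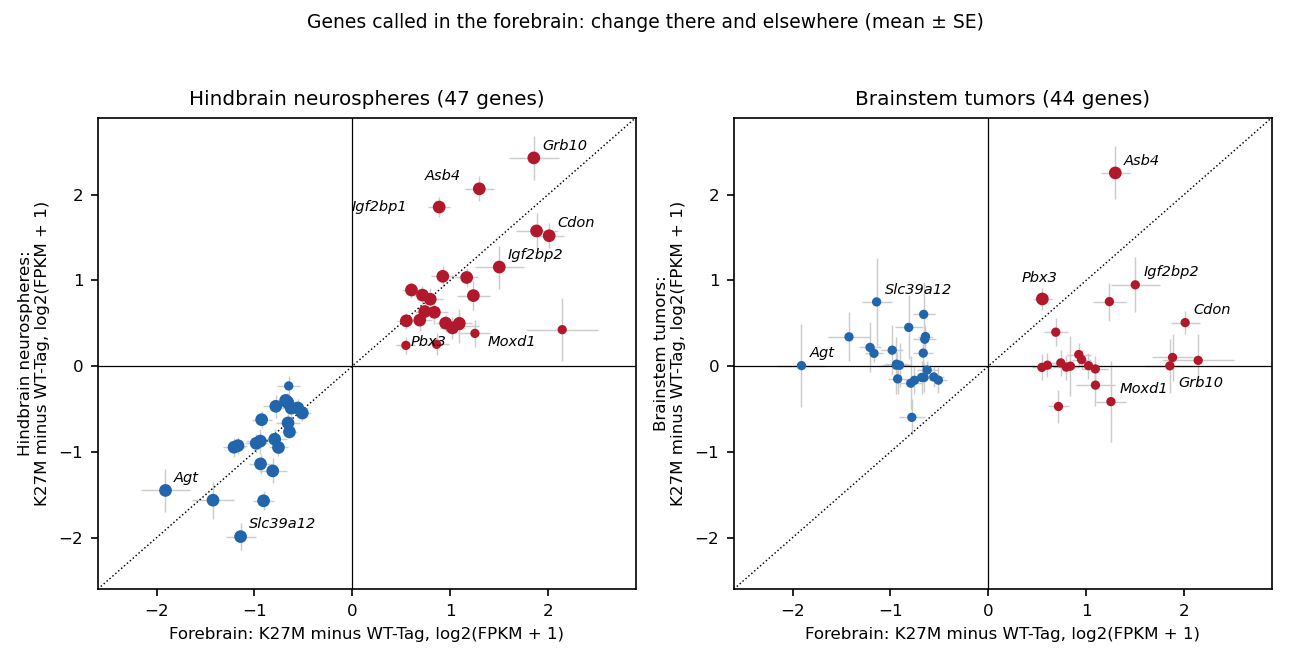
Forebrain change (horizontal) against hindbrain change (left, 47 genes) and tumor change (right, 44 genes) of the called genes, in log2(FPKM + 1), with standard errors; large points pass at an adjusted p of 0.05 in the setting on the vertical axis, and the dotted line marks equal changes. In hindbrain cultures most points lie near the dotted line, and in tumors most lie near 0 apart from Asb4 and Pbx3.

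Not all calls were equally firm. Of the 47, 20 kept their call whichever 1 of the 6 libraries was left out, with the experiment as a block and with a 5S term: Cdon, Grin2c, Asb4, Moxd1, Gjc1, Basp1, Cth, Zfp711, Igf2bp1, Agt, Paqr7, Wdfy1, Slc39a12, Clu, Gm15920, Ctso, Mt3, Plekhb1, Dera and Nrcam. With the replicate block Sdc2, Slc16a9, Dock11, Ptgr2, BC064078, Lyrm5 and Mlc1 were among those that lost theirs (adjusted p of 0.0715, 0.0718, 0.0672, 0.0614, 0.0614, 0.0560 and 0.0560). With that block on the forebrain libraries alone, 44 of 46 calls tested were lost, and Cdon and Grb10 kept theirs. Igf2bp1, under 1 FPKM in every forebrain library, could not be tested there. The 5S term sorted nothing, since all 47 kept their call with it. Igf2bp2, Slc7a3, Mfng, Pbx3, Mlc1, Lyrm5, BC064078, Dock11 and Ptgr2 lost theirs whichever library was left out (up to 0.224). Grb10 lost its call without WT-Tag 3 or K27M 1 (up to 0.0619), Bmi1 without WT-Tag 2 or 3 or K27M 2 (0.0647), and Zdbf2 and Cpne7 without WT-Tag 3 (0.0516 and 0.0516). Sepp1, Slc4a4, Gstm1, Glce and Mum1l1 kept theirs only without WT-Tag 1 (otherwise up to 0.106, 0.212, 0.109, 0.137 and 0.212). Arhgap10 kept it without experiment 1's libraries (0.0860 otherwise), Lxn without WT-Tag 1 or K27M 2 (0.109), and Plcd4 without WT-Tag 2 or K27M 3 (0.109). Sp8 kept its call only without K27M 1, Gm17498 only without K27M 2, and Plaur, Sdc2 and Slc16a9 only without K27M 3 (otherwise up to 0.109, 0.172, 0.137, 0.214 and 0.224). Without experiment 3, which held the male culture and left 2 libraries a group, 0 genes passed the limma test, 1110 had an unadjusted p under 0.05 and none of the 44 called genes tested changed sign.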

How the data were processed

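Per the labels' protocols, RNA of dissociated spheres was extracted with Trizol and made into stranded total RNA libraries. Per the submitters' processing notes, the tools were CASAVA, TopHat2 and STAR and the build was mm9, without versions. The counting tool, annotation and strand use were not given in the sources used here, which leaves overlapping genes uncertain. The authors deposited FPKM values for 34591 entries, which are not counts.

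The limma test (version 3.58.1, R 4.3.3) was run on log2(FPKM + 1), 2-sided, with a mean-variance trend, over genes at FPKM of at least 1 in at least 3 of 12 neurosphere libraries, fitted together as 4 groups. Tumors were fitted alone (at least 1 in at least 9). With 3 against 3, an exact permutation test of one value cannot go below 0.1. Members, lists and rules were chosen with earlier results of these data known. Named were the called genes, with library values for the 30 largest changes, called and leading list members, and the members of 6 lists. A few genes these rules would name are not reported here, though counts include them. Experiment ids pair the cultures by label: deviations from the group means correlated at 0.443, −0.234 and 0.352 in experiments 1, 2 and 3. Relative depth was read from FPKM of 0.02 to 0.2, where 39.7% to 60.5% of entries shared with WT-Tag 1 lay within 0.02 (log2) of ratios of small whole numbers. The limma fit and the depth estimate were tested on simulated data. Biotypes are from GENCODE M21 (87.2% of entries matched), promoters from RefSeq.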

Additional observations from a re-analysis of the deposited data

Results flagged for a closer look

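A difference between the forebrain and hindbrain effects of K27M passed the limma test in 5 genes, each with an adjusted p of 0.0389. The hindbrain changes were the larger ones. Dkk3, a secreted protein of the Dickkopf family, had a forebrain change of 0.26 ± 0.21 and a hindbrain change of 2.47 ± 0.21, a difference of −2.21 ± 0.29. Htr3a, a serotonin-gated channel subunit gene, differed by −1.96 ± 0.27 (−0.12 ± 0.19 in forebrain), Slc38a4, an amino acid transporter gene, by −1.76 ± 0.24 (0.53 ± 0.17), Lin28b by −1.33 ± 0.16 (0.32 ± 0.11) and Mtmr11, a myotubularin-related gene, by 0.93 ± 0.12 (−0.20 ± 0.09). Slc38a4 was at 0.113, 0.110 and 0.073 FPKM in forebrain WT-Tag and 0.595, 0.641 and 0.517 in K27M libraries, where hindbrain means were 0.315 and 5.48 FPKM. Dkk3, Htr3a, Lin28b and Slc38a4 were under 1 FPKM in every forebrain library and entered the test through the hindbrain cultures, where they are high with K27M. These calls were all lost with the replicate block and without any 1 forebrain library (0 genes).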

How the results depend on the processing

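The K27M and WT-Tag values of all 47 forebrain calls did not overlap. Leaving out libraries or changing the pseudocount, filter, block or trend therefore could not reverse a sign. No sign was reversed by the scalings, the sex term or the 5S term where tested. The count stayed within 1.5 times with a pseudocount of 0.1 (50), without a filter (35) and with a stricter filter (46). It did so too with the culture letter as a random effect (38), a sex term (34), upper quartile scaling (56) and no trend (48). The replicate block called 54 (30 higher, 24 lower). The count moved further with the forebrain libraries alone (80: 49 higher, 31 lower, 33 of the 47 among them), with the block on those libraries (2, Cdon and Grb10, both higher and 0 lower), after quantile normalization (105: 44 and 61) and, chosen after seeing the data, with a 5S term (100: 44 and 56, all 47 among them) and protein-coding genes alone (213: 44 and 169, 42 of the 47 among them). Leaving out 1 library gave 20 to 37 calls (9 to 20 higher, 11 to 17 lower), with 29 calls left if K27M 3 was dropped, 26 if K27M 1, 25 if K27M 2 or WT-Tag 2, and 20 if WT-Tag 3. Without experiment 3 there were 0 in either direction.

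The 5 region differences (1 higher in forebrain, 4 lower) were 0 in either direction with a pseudocount of 0.1 (817 genes at an unadjusted p under 0.05), the stricter filter (756), the replicate block (974), a sex term (827), any 1 forebrain library left out (0 to 0; no hindbrain library was left out) and without experiment 3 (485). They were 8 without a filter (4 higher), 16 with the culture effect (9 and 7), 4 after upper quartile scaling (0 higher), 2 after quantile normalization (2 and 0), 21 with a 5S term (16 higher) and 5 in coding genes (0 higher). The H3f3a change, which did not pass, was −0.047 after quantile normalization, −0.035 in coding genes and between −0.016 (without K27M 2) and 0.16 (without K27M 3) with 1 library left out. The causes were not tested. The 2 calls in tumors held in all 6 tumor alternatives. Absolute depth is unknown, so counting error behind low values such as those of Igf2bp1 cannot be given.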
